A study of Homo sapiens with 21 samples.

Results

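The genes described here drive DNA replication and mitosis, and they were read by RNA sequencing in 17 human cancer cell lines. They were named by symbol, and all 47 were found among the 53515 gene IDs of the count files. They comprise 32 mitosis genes, 11 replication genes and 4 transcription factors that regulate both groups (E2F1, E2F2, MYBL2 and FOXM1).

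Cells prepare for DNA replication in G1, when the loading factors CDC6 and CDT1 place the MCM helicase on origins. In S phase the GINS complex helps to activate that helicase and the sliding clamp PCNA tethers the polymerases, while in mitosis the CDK1 kinase with B-type cyclins, the Aurora and Polo-like kinases, the spindle checkpoint and a set of kinesins condense, align and part the chromosomes. E2F factors activate most replication genes at the G1/S boundary, and the MuvB complex with MYBL2 and FOXM1 activates mitosis genes later, in G2. Transcripts of both groups are scarce in resting cells. In bulk RNA, a lower share of cycling cells and less of a transcript in each cycling cell cannot be told apart, which holds for every value below.

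The cell lines form 10 pairs of a treatment-resistant line with the parental line it was derived from by long exposure to rising drug concentrations. HepG2 (liver, grown in William's E medium) gave the sorafenib-resistant lines HepG2S1 and HepG2S3. PancVB, a stock of the pancreatic line Panc 03.27, gave the 5-fluorouracil-resistant lines PancB1Q and PancB1V. Of the EGFR-mutant lung lines, the stock HCC4006P1 gave the erlotinib-resistant HCC4006ER, the stock HCC4006P2 gave the gefitinib-resistant HCC4006GR, and HCC827P gave the gefitinib-resistant HCC827GR. Of the ovarian lines, UWB1.289 gave U10 and U100, which are resistant to olaparib, while the cisplatin-resistant IGROV-1/CDDP came from IGROV-1. Whether a drug was present at harvest, and how dense the cultures then were, is not given in the sources used here. HepG2, HepG2S3, HCC4006P1 and HCC4006ER have 2 libraries each and the other lines 1. Nothing says that the paired libraries came from separate cultures, so p-values measure only the spread between these libraries, which may be technical.

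Libraries held 9851195 to 36639473 counts on genes, with a median of 19498932. Levels are given as CPM, the counts of a gene scaled to a fixed total over the genes that every library covers, and are not scaled by gene length, so they compare lines and not genes. In the first HCC4006P1 library, 1679 of 1679 genes had no counts in a stretch that spans several chromosomes. These were the genes there with at least 50 counts in the second library. The stretch holds ANLN, MCM7, MCM4 and CCNE2. For these 4 genes the level of HCC4006P1 comes from its second library alone, and they were left out of tests with that line, which leaves 43. The liver marker ALB stood at 14984 CPM in HepG2, at 0 in HepG2S1 and at 11.3 CPM in HepG2S3. The liver markers AFP, APOA1, APOB and TTR were also highest in HepG2. FGB, another liver marker, stood at 551 CPM in HepG2, but at 80.0 CPM in HCC827P and 878 CPM in HCC827GR. The lung marker NKX2-1 was at 140.2 CPM in HCC4006P2 and 76.2 CPM in HCC827P, but at 0.0823 CPM in HCC4006P1 and 0 in HCC4006ER. For the lung marker NAPSA these values were 177, 48.2, 0.115 and 0.412 CPM. SFTPB, also a lung marker, was at 12.6 CPM in HCC4006P2 but at 0.471 CPM in HCC827P. Of the ovarian markers, PAX8 was at 469 to 891 CPM in the 5 ovarian lines, where WT1 did not exceed 0.634 CPM. MUC16, a further ovarian marker, stood at 39.2 to 135 CPM in UWB1.289, U10 and U100. Its level did not exceed 0.741 CPM in the cisplatin pair, and it was highest in the lung line HCC827P (841 CPM). The endothelial marker CDH5 stood at 53.3 to 106 CPM in the pancreatic lines, U10 and U100. VWF, also an endothelial marker, did not exceed 5.38 CPM in those lines. Its highest level was in IGROV-1/CDDP (12.6 CPM), where CDH5 was at 1.06 CPM. Of the pancreatic duct markers, PDX1 did not exceed 0.256 CPM and MUC1 4.62 CPM in the 3 pancreatic lines, and KRT19 stood at 838 CPM in PancVB, 104 CPM in PancB1Q and 36.4 CPM in PancB1V. Of 4 leukocyte markers, PTPRC, CD3E and CD79A did not exceed 1.96 CPM in any line, while LYZ stood at 1910 CPM in HepG2, 0.517 CPM in HepG2S1 and 1.45 CPM in HepG2S3, and did not exceed 1.31 CPM in the other lines. The part of such marker differences in the results below was not tested. The second HepG2 library stood apart from the first in the genes described here, and the main results with HepG2 are therefore given with each library.

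The promoters of the 2 groups carry different short motifs. RefSeq promoter windows of GRCh38.p14, which run from 250 bases before to 50 bases after the start of the gene, were at hand for 38 of the 47 genes. AURKA, TTK, UBE2C, BIRC5, TPX2, FOXM1, MCM4, MCM5 and CCNE2 had none. Each window was searched on both strands for the cell cycle homology region (CHR, TTTGAA), the CCAAT box (CCAAT) and the E2F site (TTTCCCGC, TTTGGCGC, TTTCGCGC or TTTGCCGC), and motifs could overlap. A CHR was found in 18 of 27 mitosis promoters (66.7%), in 0 of 8 replication promoters and in 0 of 3 transcription factor promoters, beside 15.4% of all 27305 promoters. A CCAAT box was found in 22 of 27 mitosis promoters (81.5%) and in 6 of 8 replication promoters, beside 35.7% of all promoters. The E2F site was found in 8 of 8 replication promoters, in 2 of 3 transcription factor promoters and in 3 of 27 mitosis promoters, beside 3.33% of all promoters. A CHR and a CCAAT box stood together in 16 of 27 mitosis promoters and in 6.08% of all promoters. Among other genes of the same processes, a CHR was found in 27 of 38 mitosis promoters and 2 of 40 replication promoters, and an E2F site in 2 of 38 and 13 of 40. A match is a run of letters and not a measured binding site.

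The 120 bases before the gene start are printed for 4 mitosis genes to show the CHR and the CCAAT boxes, which are in capitals. MKI67 encodes the proliferation antigen Ki-67 (chr10:128126424-128126543, minus strand), CCNB2 a B-type cyclin (chr15:59105026-59105145, plus strand), PLK1 the Polo-like kinase of mitotic entry (chr16:23678769-23678888, plus strand) and CDC20 an activator of the anaphase-promoting complex (chr1:43358861-43358980, plus strand). CHR letters read forwards begin 29 bases before the start in CCNB2 and PLK1, 47 and 29 bases before it in MKI67 and 65 bases before it in CDC20. In MKI67 the nearer CHR shares its last base with a CCAAT box read on the opposite strand.
MKI67: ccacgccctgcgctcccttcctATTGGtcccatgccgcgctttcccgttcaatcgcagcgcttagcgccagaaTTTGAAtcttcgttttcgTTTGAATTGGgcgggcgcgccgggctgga
CCNB2: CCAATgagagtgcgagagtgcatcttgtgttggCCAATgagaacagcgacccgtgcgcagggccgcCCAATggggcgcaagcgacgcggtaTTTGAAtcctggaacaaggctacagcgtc
PLK1: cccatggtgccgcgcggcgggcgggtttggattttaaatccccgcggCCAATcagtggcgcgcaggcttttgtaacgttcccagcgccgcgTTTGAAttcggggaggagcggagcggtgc
CDC20: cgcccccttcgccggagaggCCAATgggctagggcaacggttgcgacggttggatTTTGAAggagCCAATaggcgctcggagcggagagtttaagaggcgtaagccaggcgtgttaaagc

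The same stretch is printed for E2F1 and 3 replication genes to show E2F sites and CCAAT boxes, again in capitals. E2F1 (chr20:33686386-33686505, minus strand) encodes the G1/S transcription factor itself. MCM6 (chr2:135876444-135876563, minus strand) encodes a helicase subunit, CDT1 (chr16:88803669-88803788, plus strand) a loading factor and GINS2 (chr16:85688955-85689074, minus strand) a subunit of the helicase-activating GINS complex. In MCM6 a pair of E2F sites on opposite strands overlap.
E2F1: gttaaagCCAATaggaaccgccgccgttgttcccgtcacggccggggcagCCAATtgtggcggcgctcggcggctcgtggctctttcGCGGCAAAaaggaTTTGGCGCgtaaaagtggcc
MCM6: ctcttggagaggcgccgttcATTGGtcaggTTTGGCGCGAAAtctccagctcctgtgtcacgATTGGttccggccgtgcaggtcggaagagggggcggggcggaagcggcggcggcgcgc
CDT1: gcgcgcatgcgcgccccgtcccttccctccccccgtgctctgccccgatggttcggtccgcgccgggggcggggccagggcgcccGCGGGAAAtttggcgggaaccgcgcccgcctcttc
GINS2: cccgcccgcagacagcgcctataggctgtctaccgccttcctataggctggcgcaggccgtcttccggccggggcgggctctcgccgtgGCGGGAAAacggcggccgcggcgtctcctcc

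Across the 17 lines the lowest levels of these genes lay in HCC4006GR and HepG2. HCC4006GR was the lowest line for 25 of the 32 mitosis genes and for all 4 transcription factors, and HepG2 was the lowest for the other 7 mitosis genes. Of the 11 replication genes, 5 were lowest in HepG2, 4 in HCC4006GR and 2 in HCC4006ER. Highest levels were spread over many lines, with 7 mitosis genes highest in HCC827P, 7 in UWB1.289 and the rest in 8 further lines. The ratio of the highest to the lowest line ranged from 3.57 for PCNA to 39.5, with a median of 14.1 over the genes. ANLN, MCM4, MCM7 and CCNE2 were left out of the mean levels that follow, so that all libraries used the same genes. Averaged over the mitosis genes on the log2(CPM + 1) scale, the level ran from 3.58 in the second HepG2 library and 4.56 in HCC4006GR to 7.88 in UWB1.289. The other 18 libraries lay between 5.89, in the first HepG2 library, and 7.78. The mean of the replication genes ran from 4.64 in the second HepG2 library to 7.85 in the second HepG2S3 library.

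**Figure D1:**
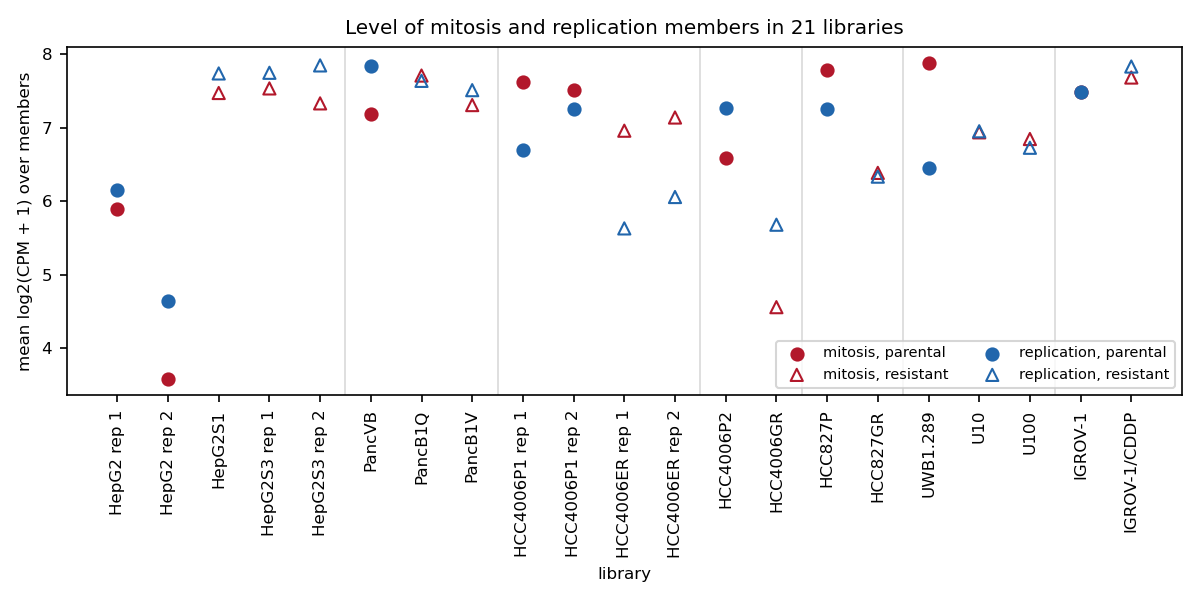
Mean level of the mitosis genes and of the replication genes in each library, as the mean over genes of log2(CPM + 1), with parental and resistant lines marked. ANLN, MCM4, MCM7 and CCNE2 were left out of these means. The second HepG2 library (3.58) and HCC4006GR (4.56) hold the lowest means of the mitosis genes.

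The pair of HepG2 libraries differed in nearly every gene described here. MKI67 stood at 177 CPM in the first and 17.5 CPM in the second. TOP2A, the topoisomerase that untangles replicated chromosomes, stood at 461 and 62.0 CPM. PCNA, at 247 and 201 CPM, was the only gene within 1.5-fold. The other 46 genes were lower in the second library by more than 1.5-fold, as were 9.04% of the 13723 genes compared, and 0 were higher, beside 8.07%. Mitosis genes were lower by a median of 5.17-fold and replication genes by a median of 1.95-fold. Between the HepG2S3 libraries, 0 of the 47 genes differed by more than 1.5-fold, beside 0.226% of genes higher and 0.997% lower in the second. Between the HCC4006ER libraries 1 of 47 was higher in the second, beside 0.376%, and 0 were lower, beside 0.975%. Between the HCC4006P1 libraries 4 of 43 were higher in the second, beside 2.04%, and 2 lower, beside 10.2%.

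Replication genes rose in the sorafenib-resistant HepG2S3 in 9 of 11 cases, and mitosis genes in 14 of 32. In all, 25 of the 47 genes rose and 0 fell by edgeR's quasi-likelihood test with Benjamini-Hochberg adjustment, where 31.4% of the 16929 genes tested rose and 32.1% fell. All 47 fitted changes lay above 0, with a median log2 change of 2.06 beside -0.01 over all genes tested. Without the first HepG2 library the median was 3.56, and without the second it was 1.32. The part of the gap between the HepG2 libraries in the size of these changes was not tested.

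The helicase genes were higher in both HepG2S3 libraries than in both HepG2 libraries, as were most of the genes described here. The share of all genes whose libraries did not overlap is not given here. MCM2, a subunit of the helicase ring, stood at 84.0 and 30.7 CPM in HepG2 and at 554 and 597 CPM in HepG2S3, so that the groups did not overlap, and its log2 change was 3.0 ± 0.50 (SE, adjusted p = 0.00408, n = 2 libraries per line by edgeR). MCM6 stood at 33.6 and 19.2 against 132 and 146 CPM (2.07 ± 0.30, adjusted p = 0.00247). MCM7 stood at 142 and 72.3 against 514 and 570.4 CPM (2.02 ± 0.34, adjusted p = 0.00447). In both, the lower HepG2S3 library lay above the higher HepG2 library. MCM5 (2.11, adjusted p = 0.0352) and MCM3 (1.3, adjusted p = 0.0117) also rose, and MCM4 did not pass (0.91, adjusted p = 0.0551). CDC6, at 60.7 and 11.8 against 241 and 254 CPM, rose by 2.44 ± 0.74 on the log2 scale (adjusted p = 0.0333), while its partner CDT1, at 36.0 and 5.08 against 64.4 and 70.3 CPM, missed the threshold (1.38 ± 0.83, adjusted p = 0.197). GINS2 (2.13, adjusted p = 0.0359) and CCNE2, the E-type cyclin of S phase entry (2.13, adjusted p = 0.00655), rose as well. PCNA had the smallest rise of those called, 0.56 ± 0.16 (adjusted p = 0.0259), from 247 and 201 to 403 and 419 CPM.

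Of the mitosis genes, the microtubule-binding spindle protein NUSAP1 rose most, from 58.5 and 12.5 CPM to 506 and 437 CPM (3.40 ± 0.73, adjusted p = 0.0103). ANLN, an actin-binding protein of the cleavage furrow, followed with 3.31 ± 0.87 (adjusted p = 0.0209). CENPF, a kinetochore protein, rose by 2.89 (adjusted p = 0.0293), CCNB2 by 2.77 (0.0187), CDK1 by 2.25 (0.0406) and CDC20 by 2.06 (0.0477). The other 18 mitosis genes missed the threshold. The median change over the 32 mitosis genes was 2.03, and it was 3.84 without the first HepG2 library and 1.26 without the second. MKI67, with 529 and 450.0 CPM in HepG2S3 above both HepG2 libraries, had a log2 change of 1.99 ± 0.98 (adjusted p = 0.130). TOP2A, at 1456 and 1151 CPM in HepG2S3, gave 1.98 ± 0.88 (adjusted p = 0.101). The adjusted p was 0.0559 for the cytokinesis kinesin KIF20A (2.38), 0.0971 for BIRC5, which encodes survivin (1.91), 0.147 for the checkpoint kinase BUB1 (1.67) and 0.147 for cyclin B1, CCNB1 (1.55). It was 0.212 for the spindle assembly factor TPX2 (1.06), 0.315 for PLK1 (0.91) and 0.637 for Aurora kinase A, AURKA (0.44). AURKA stood at 119.9 and 20.2 CPM in HepG2 and at 129 and 111 CPM in HepG2S3, so its groups overlapped, and without the second HepG2 library it was lower in HepG2S3 (-0.35, adjusted p = 0.00192). The 3 smallest changes were those of AURKA, PCNA and CDC25C, the phosphatase that activates CDK1 (0.66).

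Among the transcription factors, FOXM1 stood at 72.0 and 12.3 CPM in HepG2 and 354 and 307 CPM in HepG2S3 and rose by 2.64 ± 0.80 (adjusted p = 0.0330). E2F2 rose by 2.21 (adjusted p = 0.0384), whereas MYBL2 (1.25, adjusted p = 0.193) and E2F1 (0.84, adjusted p = 0.221) did not pass. Of other mitosis genes listed for comparison, 27 of 45 rose and 0 fell, led by SPC24 (3.81) and RACGAP1 (3.42). Of other replication genes, 35 of 46 rose and 2 fell: RRM1, a subunit of ribonucleotide reductase, had the largest rise (5.94, adjusted p = 0.000835), followed by POLA2 (3.33), and ATAD2 (-0.94) and ORC2 (-0.71) fell. Of 15 E2F, RB and MuvB genes, 4 rose, E2F7 (3.04) and LIN9 (2.13) most, and 4 fell, E2F5 (-2.04) and E2F6 (-1.27) most.

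HepG2S1, the other sorafenib-resistant line, has 1 library and its values carry no test. All 47 genes were more than 1.5-fold higher than the mean of the HepG2 libraries, beside 39.9% of the genes compared, and in HepG2S3 all 47 were, beside 39.6%. The median change on the log2(CPM + 1) scale was 2.32 for mitosis genes and 2.27 for replication genes, where all genes had a median of 0.30. With TMM scaling in place of library totals the all-gene median was -0.12, and the medians of the groups 1.90 and 1.85. NUSAP1 (3.80), MKI67 (3.39) and KIF20A (3.24) were highest relative to HepG2, and PCNA (0.83), AURKA (0.93) and CDC25C (1.05) least. In HepG2S3 the same measure was highest for NUSAP1 (3.70), ANLN (3.62) and MCM2 (3.30). Against the first HepG2 library alone, the HepG2S1 medians were 1.57 for mitosis genes and 1.60 for replication genes. Against the second alone they were 3.96 and 3.02. HepG2S1 and HepG2S3 share the same control libraries. Between the resistant lines, MKI67 was at 1033 CPM in HepG2S1 and 529 and 450.0 CPM in HepG2S3, whereas the median difference over the mitosis genes was 0.0038.

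In the erlotinib-resistant HCC4006ER, every gene that passed the test fell. Of the 43 genes tested, 25 fell and 0 rose (edgeR, adjusted p under 0.05), where 24.9% of the 12791 genes tested fell and 24.1% rose. These comprised 7 of 8 replication genes, 16 of 31 mitosis genes and 2 of 4 transcription factors, and the median log2 change was -0.76 over all 43, -1.26 over the replication genes and -0.57 over the mitosis genes, where the all-gene median was 0.01. In a fit that kept the genes of the stretch without counts, and so read their absence as low counts, 7 genes fell and 0 rose. The share of all genes called in that fit is not given here, so this count has no background.

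CDC6, MCM5 and E2F1 had the lowest changes. CDC6 stood at 72.1 and 120.2 CPM in HCC4006P1 and at 20.2 and 30.1 CPM in HCC4006ER (-2.02 ± 0.31, adjusted p = 0.00249). MCM5 stood at 145 and 207 against 53.5 and 66.3 CPM (-1.64 ± 0.22, adjusted p = 0.00146), and MCM2 at 235 and 344 against 98.8 and 130.0 CPM (-1.43 ± 0.24, adjusted p = 0.00341). In CDC6, MCM5 and MCM2 each HCC4006ER library lay below each HCC4006P1 library, for which no share of all genes is given here. CDT1 fell as well (-1.31, adjusted p = 0.00875), as did PCNA (-1.21, 0.00435), MCM6 (-0.76, 0.0243) and MCM3 (-0.76, 0.0422), and GINS2 missed the threshold (-0.81, 0.0539). The untested genes of the stretch without counts, read in 1 HCC4006P1 library, were lower too, with log2 changes of -0.67 for MCM4, -0.81 for MCM7, -0.45 for CCNE2 and -0.79 for ANLN. E2F1, at 34.3 and 64.8 against 15.3 and 22.9 CPM, fell by 1.47 ± 0.35 (adjusted p = 0.0146), and E2F2 gave -1.40 (0.00744). FOXM1 (0.11, 0.707) and MYBL2 (0.30, 0.328), the factors of the G2 programme, did not pass.

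CCNB2 had the largest fall of the mitosis genes, from 209 and 211 to 78.2 and 92.1 CPM (-1.38 ± 0.14, adjusted p = 0.000373), and CCNB1 fell by 0.57 ± 0.14 (adjusted p = 0.0180). MKI67 stood at 1082 and 1009 CPM in HCC4006P1 and 899 and 1012 CPM in HCC4006ER. Its groups overlapped, and its change of -0.21 ± 0.12 did not pass (adjusted p = 0.200). The adjusted p was 0.0645 for PLK1 (-0.55), 0.0744 for CDK1 (-0.46), 0.0921 for CDC20 (-0.47), 0.150 for TOP2A (-0.28), 0.0988 for TPX2 (-0.37) and 0.161 for BIRC5 (-0.36). It was 0.219 for BUB1 (-0.21), 0.556 for CENPF (-0.19), 0.601 for AURKA (0.11), 0.452 for KIF20A (0.13) and 0.178 for the checkpoint kinase TTK (0.29), which with MYBL2 and KIF20A had the highest values. CENPF was higher in HCC4006ER (0.24, adjusted p = 0.0418) when the first HCC4006P1 library was left out. The second HCC4006P1 library was higher than the first by a median of 0.53 on the log2 scale over the replication genes, and its median difference over the mitosis genes was -0.03. Of other replication genes, 26 of 40 fell and 0 rose, TIPIN (-2.33) and MCM10 (-1.84) most. Of other mitosis genes, 17 of 39 fell, KNSTRN (-1.51) and KNL1 (-1.32) most, and 1 rose, the CDK1-activating phosphatase CDC25B (0.58). Of 14 E2F, RB and MuvB genes, 4 fell, E2F8 (-1.45) and E2F6 (-0.79) most, and 0 rose.

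The difference between the changes was tested with an interaction term over the 8 libraries. The HCC4006ER change was below the HepG2S3 change in 31 of 43 genes and above it in 0 (edgeR, adjusted p under 0.05), where 28.2% of the 14479 genes tested were below and 27.7% above. The 31 comprised 8 of 8 replication genes, 20 of 31 mitosis genes and 3 of 4 transcription factors. The median difference over mitosis genes was -2.66, and it was -4.34 without the first HepG2 library and -1.86 without the second. Over replication genes it was -2.93, and it was -4.58 and -2.39 without these libraries. Without the first HCC4006ER library the median difference was -2.61 over mitosis genes and -2.71 over replication genes. CDC6 differed most, by -4.50 ± 0.88 on the log2 scale (adjusted p = 0.00236), then MCM2 by -4.46 ± 0.59 (0.000250) and CCNB2 by -4.20 ± 0.76 (0.00147). Differences past the threshold were also found for MCM5 (-3.79), E2F2 (-3.65), CENPF (-3.13), GINS2 (-2.99), CDK1 (-2.74), CDT1 (-2.73), CDC20 (-2.57), FOXM1 (-2.57), E2F1 (-2.35) and PCNA (-1.80), with adjusted p-values from 0.000912 for PCNA to 0.0368 for CDT1. The difference did not pass for MKI67 (-2.25, adjusted p = 0.0987), TOP2A (-2.31, 0.0661), KIF20A (-2.29, 0.0555), BIRC5 (-2.31, 0.0575) or CCNB1 (-2.16, 0.0636). Nor did it pass for BUB1 (-1.92, 0.111), PLK1 (-1.49, 0.151), TPX2 (-1.47, 0.121), MYBL2 (-1.0, 0.349) or AURKA (-0.38, 0.746).

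In both gefitinib-resistant lung lines, every mitosis gene was lower than in the parental line by more than 1.5-fold. With 1 library each, this comparison and those of the pancreatic and ovarian lines carry no test, and a gene was counted when it differed by more than 1.5-fold on the log2(CPM + 1) scale. HCC4006GR was lower than HCC4006P2 in all 47 genes, beside 17.9% of the genes compared, and higher in 0, beside 14.6%. The median change was -1.89 over mitosis genes, -2.01 over transcription factors and -1.58 over replication genes, with an all-gene median of -0.09. MKI67 was at 715 CPM in HCC4006P2 and 123 CPM in HCC4006GR (-2.53). KIF20A was at 66.7 and 7.58 CPM (-2.98). E2F2 was at 29.0 and 2.53 CPM (-3.09), which with KIF20A and DLGAP5, a spindle protein (-2.93), made up the lowest changes. MCM2 (-0.77), ECT2, an activator of RhoA at the cleavage furrow (-1.02), and MCM7 (-1.08) were closest to HCC4006P2. The 95% exact binomial interval of the log2 ratio of scaled counts covers counting error only and was at most 1.12 wide in this pair. It was taken without the added 1 CPM, so it is not centred on the changes given here. Of the other genes of these processes, 43 of 45 mitosis genes and 44 of 46 replication genes were lower. HCC4006P2 itself differed from HCC4006P1, the other parental stock, by a median of -0.96 over mitosis genes and of 0.11 over replication genes.

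HCC827GR was lower than HCC827P in 42 genes, beside 17.5% of the genes compared, and higher in 0, beside 22.2%. The 42 comprised all 32 mitosis genes, 8 of 11 replication genes and 2 of 4 transcription factors. TOP2A was at 1930.1 CPM in HCC827P and 301 CPM in HCC827GR (-2.68). The motor protein CENPE was at 262 and 56.4 CPM (-2.20) and DLGAP5 at 231 and 48.9 CPM (-2.22). These were the lowest changes, and E2F2 (-0.17), MCM5 (-0.30) and GINS2 (-0.34) the highest. The median over mitosis genes was -1.37 and over replication genes -0.79. Of other genes of these processes, 41 of 45 mitosis genes and 36 of 46 replication genes were lower, and 1 of each was higher. Within the helicase, MCM6 was at 262 and 83.6 CPM (-1.64) and MCM5 at 102 and 82.6 CPM (-0.30).

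In HCC4006ER the same measure was lower than in HCC4006P1 by more than 1.5-fold in 27 of 47 genes, beside 18.6% of the genes compared, and higher in 0, beside 25.1%. These were 10 of 11 replication genes and 15 of 32 mitosis genes with 2 transcription factors. The lowest changes were those of CDC6 (-1.89), MCM5 (-1.54) and E2F1 (-1.33), and MYBL2 (0.38), TTK (0.36) and KIF20A (0.21) had the highest.

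**Figure D2:**
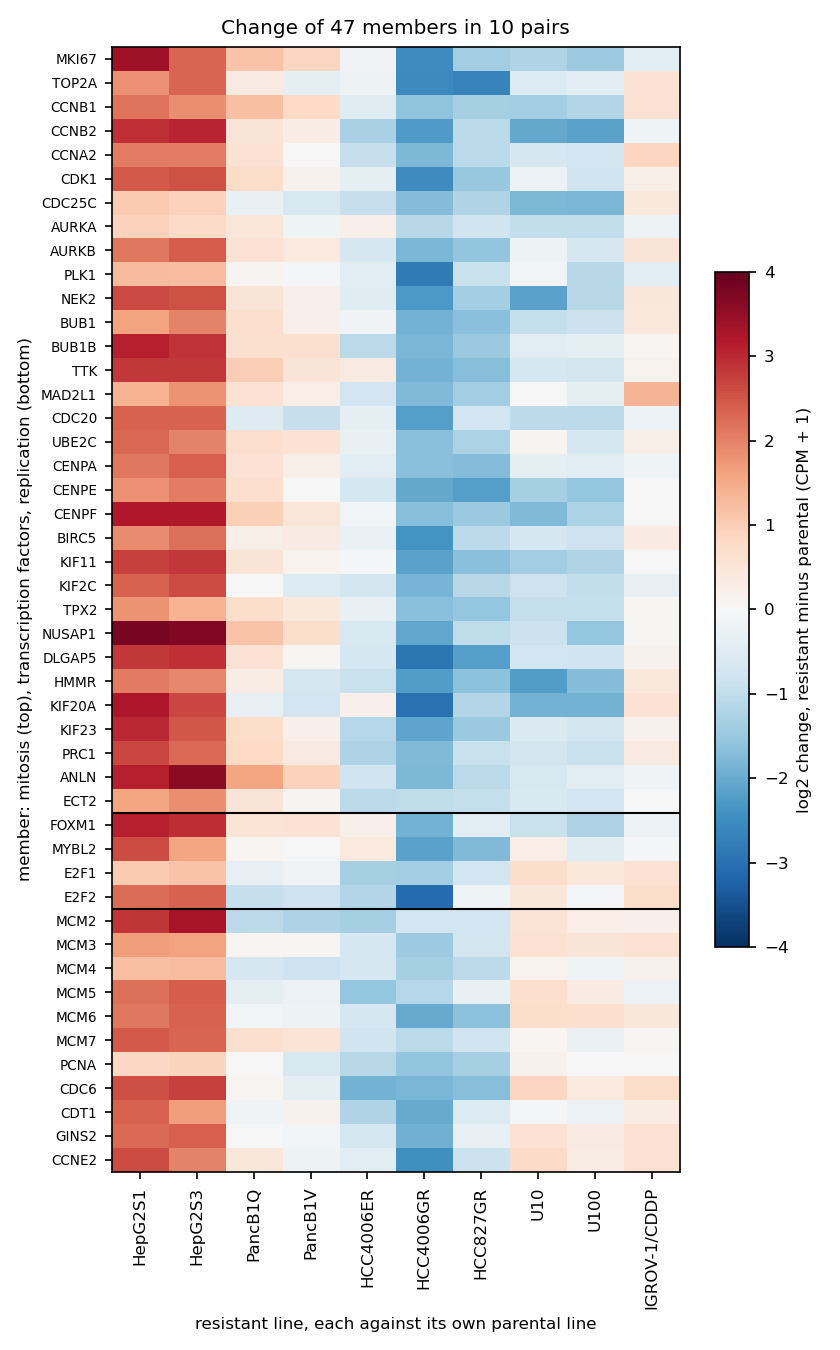
Change of each of the 47 genes in each of the 10 resistant lines against its parental line, as the difference in log2(CPM + 1), with genes ordered by group. HepG2S1 and HepG2S3 are higher for all 47 genes, HCC4006GR is lower for all 47, and U10 and U100 are lower by more than 1.5-fold for 23 and 27 mitosis genes.

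In the olaparib-resistant ovarian lines, most mitosis genes were lower than in the parental line by more than 1.5-fold, and 0 of the 11 replication genes were. In U10, 23 mitosis genes were lower than in UWB1.289 and 0 higher, while 5 replication genes were higher and 0 lower, for totals of 24 lower beside 16.2% of the genes compared and 6 higher beside 15.1%. The median change was -0.81 over mitosis genes and 0.57 over replication genes, with an all-gene median of -0.03. CCNB2 was at 135 CPM in UWB1.289, 31.7 CPM in U10 and 29.9 CPM in U100. MKI67 was at 1264, 552 and 458 CPM, and HMMR, a spindle and hyaluronan-binding protein, at 608, 128 and 181 CPM. In each of these 3 mitosis genes both resistant lines lay below the parental one. CDC6 was at 54.8, 99.3 and 72.5 CPM, MCM6 at 84.6, 137 and 136 CPM, and E2F1 at 51.9, 86.0 and 70.0 CPM. For these, both resistant lines lay above it.

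Relative to UWB1.289, the lowest changes in U10 were those of HMMR (-2.24), the centrosomal kinase NEK2 (-2.14) and CCNB2 (-2.05), and the highest those of CDC6 (0.85), CCNE2 (0.77) and E2F1 (0.72). In U100, 27 mitosis genes were lower and 1 replication gene higher, for totals of 28 lower beside 7.89% and 1 higher beside 16.9%, and the medians were -0.91 and 0.30. There CCNB2 (-2.14), KIF20A (-1.89) and CDC25C (-1.84) were lowest and MCM6 (0.68), MCM3 (0.51) and E2F1 (0.42) highest. PLK1 set the resistant lines apart, at 200.1 CPM in UWB1.289, 185 CPM in U10 and 92.2 CPM in U100. Both comparisons share the 1 UWB1.289 library, the one with the highest mean of the mitosis genes, so its own deviation enters both. At a 2-fold threshold 11 genes were lower in U10 and 14 in U100, and 0 were higher in either. The share of all genes past 2-fold is not given here, so these counts have no background. Of 46 other replication genes, 7 were higher and 1 lower in U10, with a median change of 0.05, and 0 were higher and 3 lower in U100, with a median of -0.11. Of 45 other mitosis genes, 24 were lower in U10 and 35 in U100, and 0 were higher in either.

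Of the 5-fluorouracil-resistant pancreatic lines, PancB1Q had more mitosis than replication genes on the higher side. In PancB1Q, 17 mitosis genes were higher than in PancVB and 0 lower, and 1 replication gene was higher and 2 lower. With the transcription factors, the totals were 18 higher, beside 15.1% of the genes compared, and 3 lower, beside 23.2%. ANLN was at 497 CPM in PancVB, 1486 CPM in PancB1Q and 933 CPM in PancB1V. MKI67 was at 857, 1871 and 1571 CPM and CCNB1 at 161, 374 and 281 CPM. In all 3 the level was highest in PancB1Q and lowest in PancVB. MCM2 was lower in both resistant lines, at 462, 221 and 197 CPM, as was MCM4, at 677, 422 and 380.4 CPM. The highest changes in PancB1Q were those of ANLN (1.58), CCNB1 (1.21) and NUSAP1 (1.14), and the lowest those of MCM2 (-1.06), E2F2 (-0.91) and MCM4 (-0.68). The median was 0.59 over mitosis genes and -0.02 over replication genes, with an all-gene median of -0.11. Under TMM scaling, which moved the all-gene median to 0.07, the medians were 0.78 and 0.16, so that the sign for the replication genes turned. Of 45 other mitosis genes, 19 were higher and 1 lower, with a median of 0.51, and of 46 other replication genes, 9 were higher and 3 lower, with a median of 0.15, so that this wider list did not differ in sign from the mitosis genes.

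PancB1V held fewer genes past 1.5-fold. There 6 genes were higher, beside 20.1% of the genes compared, and 8 lower, beside 17.1%, with medians of 0.21 over mitosis genes and -0.22 over replication genes. These comprised 5 mitosis genes higher and 4 lower and 0 replication genes higher and 3 lower. Under TMM scaling, for which no share of all genes is given here, 8 genes were higher and 7 lower. Of 45 other mitosis genes 9 were higher and 2 lower, and of 46 other replication genes 4 were higher and 5 lower. ANLN (0.91), MKI67 (0.87) and CCNB1 (0.80) were highest, and MCM2 (-1.23), CDC20 (-0.91) and MCM4 (-0.83) lowest. The PancVB library is shared by both comparisons. At a 2-fold threshold, for which no share of all genes is given, 4 genes were higher and 1 lower in PancB1Q. In PancB1V 0 were higher and 1 lower. CDC20 was at 456 CPM in PancVB, 317 CPM in PancB1Q and 241 CPM in PancB1V.

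The cisplatin-resistant IGROV-1/CDDP differed from its parental line in few of these genes. It was higher than IGROV-1 in 9 genes, beside 13.7% of the genes compared, and lower in 0, beside 18.5%, with medians of 0.15 over mitosis genes, 0.27 over transcription factors and 0.30 over replication genes. MAD2L1, a spindle checkpoint protein, was at 89.1 CPM in the parental and 229 CPM in the resistant line (1.35). CCNA2, the cyclin of S phase and G2, was at 158 and 287 CPM (0.86), and E2F2 at 59.3 and 99.8 CPM (0.74). At the other end were MKI67, at 1556 and 1139 CPM (-0.45), PLK1 (-0.42) and the kinesin KIF2C (-0.34), all within 1.5-fold. Of other mitosis genes 7 of 45 were higher and 2 lower, and of other replication genes 9 of 46 were higher and 0 lower.

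**Figure D3:**
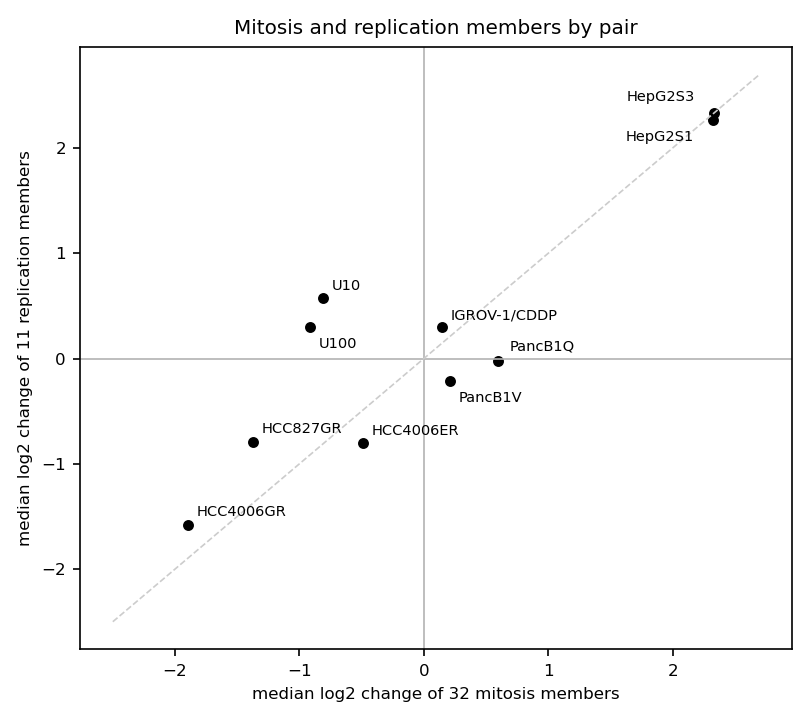
Median change of the mitosis genes (horizontal axis) and of the replication genes (vertical axis) in each of the 10 resistant lines against its parental line, both as differences in log2(CPM + 1). PancB1Q, PancB1V, U10 and U100 have medians of opposite sign for the 2 groups (in PancB1Q not under TMM scaling), and U10 combines -0.81 over mitosis genes with 0.57 over replication genes.

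Over all parental lines, no shared direction passed a test. The counts were summed to 7 resistant and 7 parental profiles, and 0 of the 43 genes and 0 of the 12622 genes tested passed by edgeR (0% in each direction), with 562 genes and 0 of the 43 at an unadjusted p under 0.05. DESeq2 called 76 genes higher and 19 lower, 0 of them among the 43. The fitted changes of 42 of the 43 genes lay below 0 with a median of -0.29, and their lowest adjusted p was 0.982. The median over mitosis genes was -0.32, and it was -0.20 without the first HepG2 library and -0.41 without the second. Over replication genes it was -0.17, and it was -0.12 and -0.22 without these libraries. Without the HepG2 lines the median over the 43 genes was -0.66. In that fit 0 of 31 mitosis genes, 0 of 8 replication genes and 0 of 4 transcription factors passed. Without the HCC4006P2 lines the median was -0.02, and with the profiles of HCC4006P1 and HCC4006P2 summed as 1 it was -0.05. CDC25C (-0.77), HMMR (-0.71) and CCNB2 (-0.65) had the lowest values and GINS2 (0.02), MCM3 (-0.03) and FOXM1 (-0.07) the highest. The mitosis genes MKI67 (-0.40), TOP2A (-0.45), CCNB1 (-0.21), CDK1 (-0.29), PLK1 (-0.56), AURKA (-0.31), BUB1 (-0.29), CDC20 (-0.50), BIRC5 (-0.28), CENPF (-0.25), KIF20A (-0.51) and TPX2 (-0.38) lay between these. So did MYBL2 (-0.28), E2F1 (-0.23), E2F2 (-0.33), MCM2 (-0.15), MCM5 (-0.16), PCNA (-0.51), CDC6 (-0.28) and CDT1 (-0.30).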

How the data were processed

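RNA of 21 libraries was sequenced. The study describes 2 kits (stranded mRNA or 3′ tags), and which kit made which of these libraries is not given in the sources used here. Bowtie, TopHat, SAMtools and HTSeq with build hg19 are named in the submitters' processing notes, without versions. The study names Bowtie and TopHat for the stranded mRNA kit and STAR for the 3′ tags, and the notes do not name STAR. The deposited values are raw counts per Ensembl gene ID, as the authors' counting left them. Rows that name no gene held 28.0 to 42.8% of the sums and were left out, and 84.3% of IDs matched a symbol. Members and lists were chosen with earlier results of these data known. CPM was computed on genes placed outside the stretch that lacks counts in 1 library, by the GRCh37 annotation, and pair changes used log2(CPM + 1) for genes of at least 1 CPM in either line. Counts were tested with edgeR 4.0.16 in R 4.3.3 (TMM, filterByExpr, quasi-likelihood, Benjamini-Hochberg, threshold 0.05), and DESeq2 1.42.0 was an alternative. The tests were also run on counts simulated gene by gene from the fitted model. That setting lacks the joint shift of genes between the HepG2 libraries, and its outcome is not given here. Named were 25 listed genes (MKI67, TOP2A, CCNB1, CDK1, PLK1, AURKA, BUB1, CDC20, BIRC5, CENPF, KIF20A, TPX2, FOXM1, MYBL2, E2F1, E2F2, MCM2, MCM4, MCM5, MCM7, PCNA, CDC6, CDT1, GINS2 and CCNE2) and, for each comparison, the 3 highest and the 3 lowest changes. Alternatives comprised scaling, filters, pseudocount, fold threshold, a replicate block and leaving out each library. Whether strand was used in counting is not given in the sources used here, so reads of genes that overlap on opposite strands may be shared. Counting error was given as 95% exact binomial intervals, which cover counting error only. Drawing used matplotlib 3.10.9.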

Additional observations from a re-analysis of the deposited data

Results flagged for a closer look

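Levels and changes of the genes were compared over the 7 parental lines by Dixon's criterion, which flags a line whose gap to its nearest neighbour exceeds the critical share of the whole range at the 95% level. Of 94 such groups, 12 were flagged. Chance flags about 1 in 20 independent groups, but these genes were all read in the same lines, and HCC4006P1 and HCC4006P2 are stocks of 1 line. The flags are therefore not independent, and their number cannot be set against that rate. HepG2 stood apart in 11 of them, and its values are means over a pair of libraries that differ from each other. HepG2 had the lowest parental level on the log2(CPM + 1) scale of MKI67 (6.62), CDK1 (5.27), CENPE (4.28), KIF11 (5.10), DLGAP5 (4.04), ANLN (5.44), ECT2 (5.90), MCM7 (6.76) and CDT1 (4.43). The change of the HepG2-derived lines was high for KIF2C (2.49, where the other parental lines gave -1.86 to -0.28) and for MCM2 (3.09). PancVB had a high parental level of MCM3 (9.74).

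The HCC4006ER change differed from the HepG2S3 change by the interaction test of edgeR for CDC6 (-4.50), MCM2 (-4.46), CCNB2 (-4.20), MCM5 (-3.79), E2F2 (-3.65), CENPF (-3.13), GINS2 (-2.99), CDK1 (-2.74), CDT1 (-2.73), CDC20 (-2.57), FOXM1 (-2.57), E2F1 (-2.35) and PCNA (-1.80), each on the log2 scale. Each of these pairs a change above 0 in HepG2S3 with a change of 0.11 or less in HCC4006ER.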

How the results depend on the processing

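Of the counts of genes recomputed under other settings, 181 stayed within 1.5 times the main count and 21 did not. The number of genes that rose in HepG2S3 was 45 with the replicate number as a block, against 25, and 21 to 47 when 1 library at a time was left out, with 0 to 1 falling. In HCC4006ER the block gave 2 genes higher, against 0, leaving out 1 library gave 0 to 2 higher and 18 to 33 lower, and keeping all genes gave 7 lower. The difference between these changes was called in 20 to 43 genes when 1 library was left out, against 31, and in 41 with the block. Same-numbered libraries deviated together with a correlation of 0.0154 for HepG2 with HepG2S3 and 0.264 for HCC4006P1 with HCC4006ER. With only 2 numbers per line these were not taken to pair the libraries. A fit that leaves a line with 1 library assumes that it varies like the other lines. The shares of all genes called in the refits with a block, without a library or with all genes kept are not given here. The counts from these refits are therefore not set against a background. Leaving out 1 library moved AURKA in HepG2S3 between -0.35 (without the second HepG2 library) and 2.26, and CENPF in HCC4006ER between -0.55 and 0.24 (without the first HCC4006P1 library). With a 2-fold threshold in place of 1.5-fold, the genes past it were 4 higher and 1 lower in PancB1Q, 0 and 1 in PancB1V, 0 higher and 11 lower in U10, 0 and 14 in U100, 12 lower in HCC4006ER and 1 higher in IGROV-1/CDDP. No share of all genes past 2-fold is given beside these counts. Leaving out 1 library gave 0 to 1 genes past 1.5-fold higher in HCC4006ER. Of the values of single named genes, 875 kept their side of the threshold, 101 passed it only under the alternative, 44 lost it and 2 reversed. A value that changed sign without passing in either setting was counted among the 875, so these did not all keep their direction. The cause of these shifts was not tested. The interval from counting error, taken on the log2 ratio of scaled counts without the added 1 CPM, had a median width of 0.376 and was at most 1.12 wide in HCC4006GR.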
